A study of Homo sapiens with 15 samples.

Results

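The genes described here mostly encode the nuclear-encoded parts of respiratory complexes I and II and the factors that assemble them. They were chosen by name, as protein-coding genes whose symbols begin with NDUFA, NDUFB, NDUFC, NDUFS or NDUFV, with the SDHA to SDHD subunits and the SDHAF1 to SDHAF4 assembly factors. The naming rule uses no measured value, but it was set with earlier results of these data known. This gave 56 of the 57773 genes counted, 48 with NDUF symbols and 8 with SDH symbols. Of these, 54 had enough counts to be tested among 13085 genes. The other 2 were NDUFA4L2, which had 2 to 15 counts per library, and the read-through locus NDUFC2-KCTD14, which had a count of 0 in all 15 libraries. NDUFA4 and NDUFA4L2 fit the naming rule but are not complex I subunits, and the counts and medians of the 54 include NDUFA4.

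The libraries were made from total RNA of femoral marrow from SCID-beige mice, a strain with impaired lymphocytes that had been injected by vein with MM.1S gfp+/luc+ cells, an established human multiple myeloma line carrying fluorescent and luciferase reporters. There were 5 groups with 3 libraries each, and 5 mice per group were treated. The bortezomib group received 0.25 mg/kg of this proteasome inhibitor into the peritoneum weekly, and the elesclomol group received 25 mg/kg of this copper-binding compound under the skin. The combination group received both drugs in this way, and the delayed combination group received both, with elesclomol started 14 days after inclusion. The PBS group received 200 uL of saline by vein weekly. Marrow was taken when the animals became paralysed, so the libraries describe tumours at the end of treatment and not an early response. All groups share the same cell line, host strain and disease stage, and the labels do not give the sex or age of the mice.

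Complex I takes electrons from NADH, passes them along a flavin and a chain of iron-sulfur clusters to ubiquinone, and pumps protons across the inner mitochondrial membrane. Its catalytic core is shared between nuclear genes and genes of mitochondrial DNA, and a larger set of nuclear accessory subunits surrounds it. Complex II, succinate dehydrogenase, passes electrons from succinate to the same ubiquinone pool without pumping protons, and all its subunits are nuclear. Elesclomol carries copper into mitochondria and is known to target FDX1, a mitochondrial iron-sulfur protein, and its toxicity is known to be greatest in cells that rely on respiration.

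Promoters of nuclear respiratory genes are known for sites of the factors NRF1, GABP (an ETS factor) and YY1. The 4 windows below are shown because they belong to the members with the smallest joint p (NDUFC1), the lowest change in both bortezomib-elesclomol groups (NDUFV2) and the highest change in the delayed combination (NDUFA3), and to the member with the most NRF1 matches (SDHA). Each holds 250 bases before and 50 bases after the gene start on the gene's own strand, 5′ to 3′, from RefSeq on GRCh38.p14. Matches to the NRF1 consensus on either strand are in capitals. NDUFC1 is read on the minus strand of chr4:139302502-139302801, NDUFV2 on the plus strand of chr18:9102449-9102748, NDUFA3 on the plus strand of chr19:54102605-54102904 and SDHA on the plus strand of chr5:218070-218369.
NDUFC1: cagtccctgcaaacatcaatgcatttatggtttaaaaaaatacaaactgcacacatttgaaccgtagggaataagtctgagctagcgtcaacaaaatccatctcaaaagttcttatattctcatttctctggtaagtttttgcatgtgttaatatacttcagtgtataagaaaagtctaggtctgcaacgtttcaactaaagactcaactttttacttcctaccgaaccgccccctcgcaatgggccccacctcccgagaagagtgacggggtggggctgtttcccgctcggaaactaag
NDUFV2: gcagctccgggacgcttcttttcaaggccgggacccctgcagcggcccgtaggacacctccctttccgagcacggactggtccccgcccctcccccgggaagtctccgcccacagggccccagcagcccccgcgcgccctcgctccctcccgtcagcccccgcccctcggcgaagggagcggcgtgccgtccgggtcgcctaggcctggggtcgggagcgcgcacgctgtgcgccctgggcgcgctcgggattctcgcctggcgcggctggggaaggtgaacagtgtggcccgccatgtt
NDUFA3: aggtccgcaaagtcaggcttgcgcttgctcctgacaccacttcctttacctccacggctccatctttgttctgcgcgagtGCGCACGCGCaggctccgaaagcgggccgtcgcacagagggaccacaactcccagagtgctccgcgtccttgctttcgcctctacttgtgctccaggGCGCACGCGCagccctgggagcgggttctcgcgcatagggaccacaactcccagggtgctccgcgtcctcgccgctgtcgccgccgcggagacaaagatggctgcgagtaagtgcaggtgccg
SDHA: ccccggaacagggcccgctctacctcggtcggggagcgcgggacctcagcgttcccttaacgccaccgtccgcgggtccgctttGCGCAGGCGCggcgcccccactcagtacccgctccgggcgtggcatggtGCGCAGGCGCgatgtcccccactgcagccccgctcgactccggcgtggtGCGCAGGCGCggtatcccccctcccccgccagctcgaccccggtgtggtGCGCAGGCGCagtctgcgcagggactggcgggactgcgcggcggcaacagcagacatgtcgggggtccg

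The RefSeq table held windows for 47 of the 56 genes. For 6 of them it held several, and the first was used. The NRF1 letters were present in 11 of the 47 (23.4%), against 5.78% of all 35116 windows of 300 bases in the table. The ETS letters CCGGAAG were present in 10 (21.3%, against 10.3%) and the YY1 consensus in 8 (17%, against 1.44%), each searched on both strands. The promoter motifs SP1, E-box, CCAAT box and TATA box were searched too. They were present in 59.6%, 8.51%, 23.4% and 6.38% of the 47, against 45%, 7.26%, 34.6% and 11.5% of all windows. The windows of the table were not matched to the members by GC content or gene type. Of the 8 YY1 matches, 6 began 8 to 21 bases after the gene start. SDHA held 4 NRF1 matches spaced 49 bases apart, NDUFA3 held 2, and NDUFC1 and NDUFV2 held none of the NRF1, ETS or YY1 letters. The 11 tested members with NRF1 letters had a median log2 change against PBS of 0.09 in bortezomib, 0.03 in elesclomol, 0.04 in the combination and 0.14 in the delayed combination, and the 35 without them had 0.12, -0.02, 0.07 and 0.18.

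No complex I or II gene passed an adjusted p of 0.05 in any of the 9 comparisons or in the joint test of any difference among the 5 groups (edgeR quasi-likelihood test, Benjamini-Hochberg adjustment over 13085 genes). Over all genes, 0.0688% passed for elesclomol against PBS, 0.00764% for the interaction and 0% elsewhere. With DESeq2, 1 member (NDUFC1) passed in the joint test, as did 1.08% of all genes. With limma voom, 1 member passed in bortezomib (5.66% of all genes), 3 in the combination (10.7%), 2 in the delayed combination (1.28%) and 3 in the joint test (8.30%). Without a filter on low counts, NDUFV2 passed in the delayed combination (0.550% of all genes) and in the joint test (1.77%). The shifts were small. In the delayed combination, 42 of the 54 members had a log2 change above 0 and the median was 0.17, beside a median of 0.01 over all genes tested, of which 51.3% lay above 0. In bortezomib, 41 members lay above 0 with a median of 0.12, beside 0.02 and 52.6% over all genes. In the combination, 37 members lay above 0 with a median of 0.07, beside 0.01 and 51.7%. In elesclomol, 28 members lay above 0 with a median of 0.01, beside 0.00 and 50.7%. All 4 comparisons use the same 3 PBS libraries, so they are not independent of each other.

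**Figure D1:**
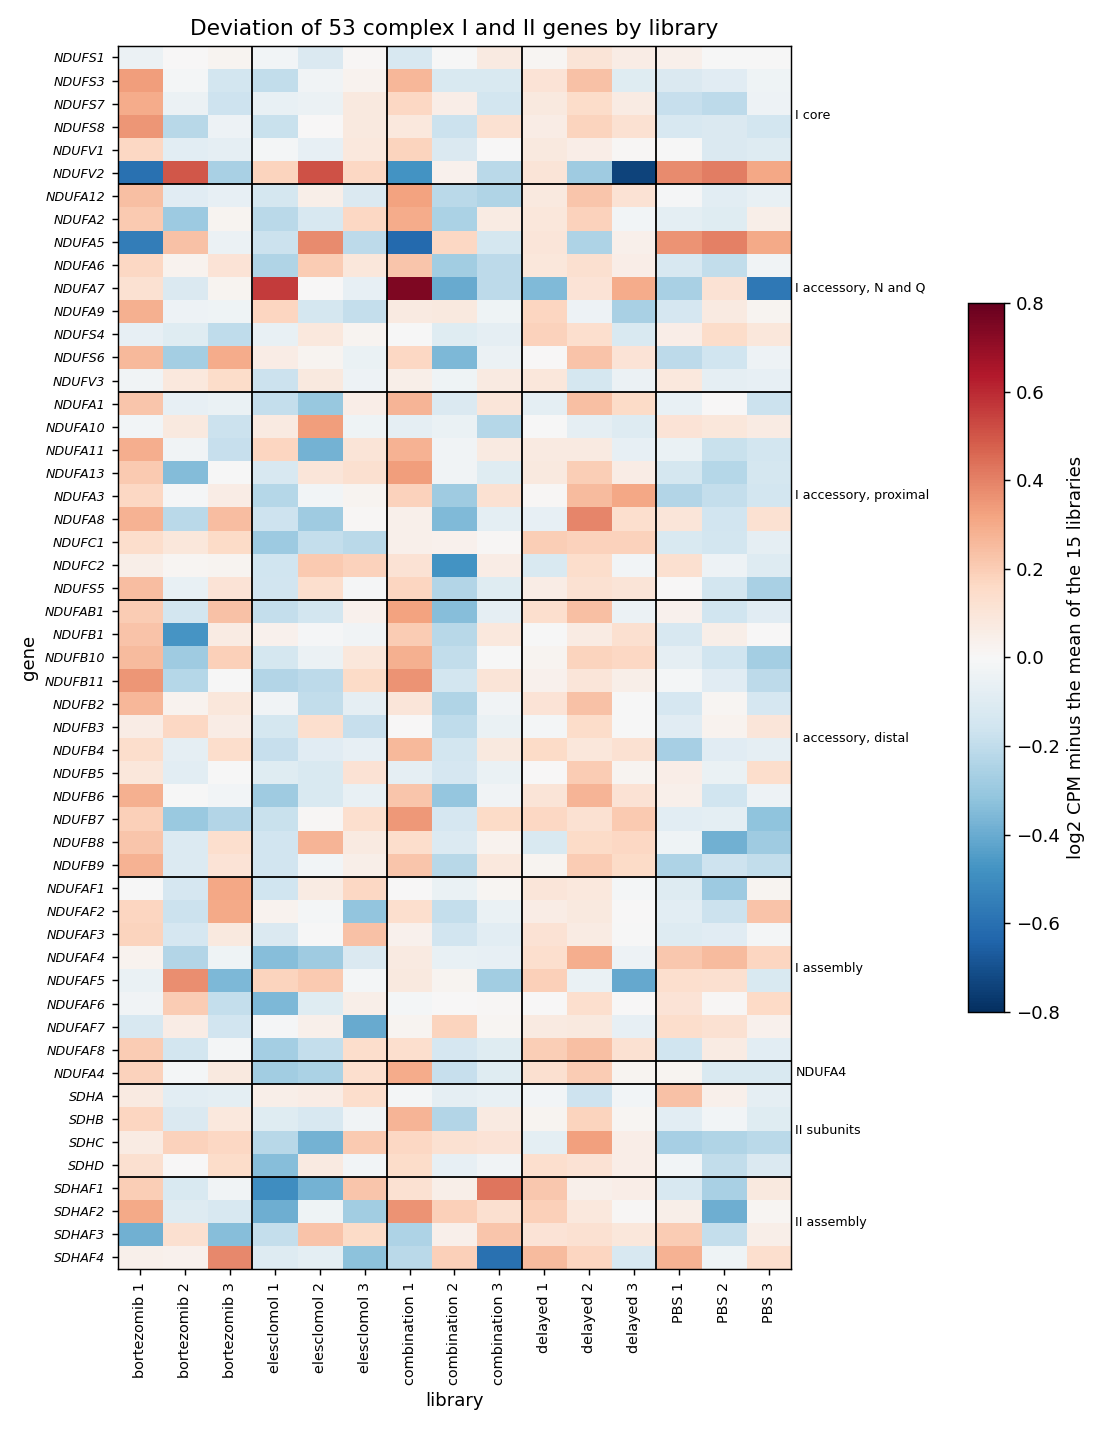
Heat map of 53 complex I and II genes (rows, grouped by role) in the 15 libraries (columns), coloured by log2 CPM minus the mean of the 15 libraries. Bortezomib 1 and combination 1 are red for most genes and blue for NDUFA5 and NDUFV2, and the PBS libraries are mostly pale blue.

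The summed level of the members was 2348.8 to 2483.8 CPM (counts scaled to the library size) in the delayed combination libraries, all above the 2152.6 to 2213.4 CPM of the PBS libraries. It was 2175.5 to 2514.3 CPM in the bortezomib libraries, 2074.6 to 2311.5 CPM in the elesclomol libraries and 2067.6 to 2502.7 CPM in the combination libraries, and these 3 groups overlapped with PBS.

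In the delayed combination, 22 members lay higher in all 3 libraries than in all 3 PBS libraries, which was 40.7% of the members, while 12.8% of all genes did so. Lower in all 3 libraries were 3 members, against 14.7% of all genes. The counts of members higher and lower without overlap were 9 and 3 in bortezomib (10.5% and 9.61% of all genes), 2 and 3 in elesclomol (9.55% and 10.2%) and 6 and 5 in the combination (11.3% and 10.9%). An unadjusted p under 0.05 was reached by 8 members in the delayed combination (11.1% of all genes), 5 in bortezomib (10.6%), 1 in elesclomol (8.07%), 4 in the combination (13.6%) and 3 in the joint test (9.40%). The delayed combination libraries were also the deepest, with 11060930 to 13161087 counts, against 4500326 to 6287708 counts in the PBS libraries, and the part of depth in this count was not tested.

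**Figure D2:**
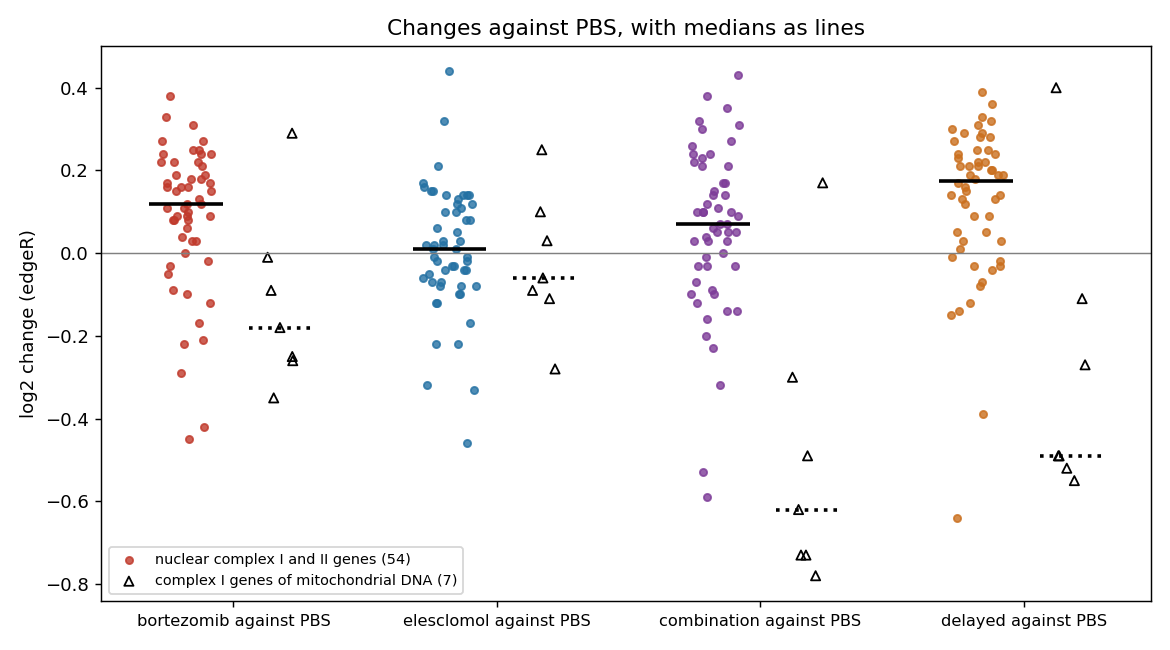
Log2 change (edgeR) against PBS in each treated group for the 54 nuclear complex I and II genes (filled points) and the 7 complex I genes of mitochondrial DNA (open triangles), with medians as solid and dotted lines. The nuclear medians are 0.12, 0.01, 0.07 and 0.17, and the mitochondrial medians -0.18, -0.06, -0.62 and -0.49, in the order of the axis.

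The treated groups were also set against each other. The median log2 change was 0.03 for the delayed combination against bortezomib (35 members above 0), -0.05 for the combination against bortezomib (16 above 0), 0.06 for the combination against elesclomol (36 above 0) and 0.07 for the delayed combination against the combination (41 above 0), beside 47.6%, 47.3%, 48.9% and 48.7% of all genes above 0. The sign of the first 3 medians turned when 1 library was left out, to -0.02 without bortezomib 2, to 0.02 without bortezomib 1 and to -0.02 without combination 1. The fourth was 0.03 to 0.15. The counts of members higher and lower without overlap were 0 and 2 for the combination against bortezomib (4.26% and 3.93% of all genes), 1 and 0 for the delayed combination against bortezomib (2.83% and 3.86%), 3 and 3 for the combination against elesclomol (8.57% and 7.47%), and 2 and 0 for the delayed combination against the combination (3.54% and 4.05%). An unadjusted p under 0.05 was reached by 4 members for the combination against elesclomol (12.2% of all genes) and by 0 members for the combination against bortezomib (4.23%), the delayed combination against bortezomib (3.52%) and the delayed combination against the combination (2.63%). The interaction of the 2 drugs had a median of -0.04 with 17 members above 0 (48.6% of all genes). This median was 0.03 without bortezomib 1 and -0.14 without combination 1. For the interaction 1 member, NDUFAF4, had an unadjusted p under 0.05 (8.79% of all genes).

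The nuclear catalytic core of complex I had 7 genes, of which 6 are described. NDUFV1, which binds NADH and the flavin, had 153.8, 129.5 and 130.9 CPM in the bortezomib libraries, 136.2, 131.0 and 146.0 CPM in the elesclomol libraries, 155.7, 127.0 and 137.6 CPM in the combination libraries and 145.0, 142.8 and 138.5 CPM in the delayed combination libraries, against 136.8, 126.8 and 127.7 CPM in the PBS libraries. NDUFV2, which carries an iron-sulfur cluster beside the flavin, had 10.6, 22.9 and 13.4 CPM in the bortezomib libraries, 18.3, 23.1 and 18.1 CPM in the elesclomol libraries, 11.5, 16.5 and 13.8 CPM in the combination libraries and 17.3, 13.2 and 9.57 CPM in the delayed combination libraries, against 21.0, 21.5 and 20.1 CPM in the PBS libraries. NDUFV1 was slightly higher in every delayed combination library than in every PBS library, whereas NDUFV2 was the lowest-ranked member in the combination and the delayed combination and was lower there in all 3 libraries than in PBS.

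The log2 change of NDUFV2 was -0.59 ± 0.26 (SE) in the combination (edgeR adjusted p = 0.355) and -0.64 ± 0.25 in the delayed combination (edgeR adjusted p = 0.422). In bortezomib it was -0.42 ± 0.26 with libraries on both sides of PBS, and in elesclomol -0.07 ± 0.26. The bortezomib value was -0.19 without bortezomib 1 and -0.81 without bortezomib 2. NDUFV2 was also the most variable tested member among bortezomib and among delayed combination libraries, with coefficients of variation of 41.2% and 29%. It has a processed pseudogene, NDUFV2P1, whose count was 18.6% of that of NDUFV2, so reads of the pair may have been split by the counting. Mean NDUFV2P1 was 3.45 CPM in bortezomib, 3.28 in elesclomol, 2.03 in the combination and 3.28 in the delayed combination, against 2.64 CPM in PBS. The part of such splitting in the changes of NDUFV2 was not tested.

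NDUFS1, the largest core subunit and the holder of several iron-sulfur clusters, had 154.2, 159.5 and 162.0 CPM in the bortezomib libraries, 156.8, 147.4 and 160.6 CPM in the elesclomol libraries, 145.7, 159.0 and 167.8 CPM in the combination libraries and 160.8, 171.6 and 166.3 CPM in the delayed combination libraries, against 163.7, 159.3 and 158.7 CPM in the PBS libraries. Its highest library was 1.18 times its lowest, the smallest such ratio among the 54 tested members.

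The other core subunits link the clusters to ubiquinone. NDUFS3 had 54.4, 42.7 and 38.9 CPM in the bortezomib libraries, 37.5, 42.3 and 43.9 CPM in the elesclomol libraries, 51.9, 39.5 and 39.5 CPM in the combination libraries and 46.5, 50.9 and 40.4 CPM in the delayed combination libraries, against 39.7, 40.4 and 42.1 CPM in the PBS libraries. NDUFS7, which carries the last cluster before ubiquinone, had 50.5, 39.8 and 36.6 CPM in the bortezomib libraries, 39.5, 39.8 and 43.5 CPM in the elesclomol libraries, 46.1, 42.5 and 37.1 CPM in the combination libraries and 43.4, 45.6 and 43.0 CPM in the delayed combination libraries, against 36.1, 35.5 and 40 CPM in the PBS libraries. NDUFS8, which carries the clusters before it, had 74.7, 50 and 56.8 CPM in the bortezomib libraries, 51.5, 58.6 and 61.6 CPM in the elesclomol libraries, 62.0, 51.9 and 63.5 CPM in the combination libraries and 60.9, 66.2 and 63.5 CPM in the delayed combination libraries, against 53.5, 54 and 52.8 CPM in the PBS libraries. NDUFS7 and NDUFS8 were higher in all 3 delayed combination libraries than in all PBS libraries, with log2 changes of 0.24 ± 0.12 and 0.25 ± 0.13 (edgeR adjusted p = 0.457 and 0.471), and NDUFS3 overlapped with PBS in every treated group.

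Complex II has 4 subunits. SDHA, the flavoprotein that oxidises succinate, had 65.5, 58.8 and 58.9 CPM in the bortezomib libraries, 64.3, 64.9 and 68.5 CPM in the elesclomol libraries, 61.6, 59.1 and 59.8 CPM in the combination libraries and 61.3, 55.4 and 61.3 CPM in the delayed combination libraries, against 73.1, 64.0 and 59.2 CPM in the PBS libraries. SDHB, the iron-sulfur subunit, had 59.4, 48.6 and 55.7 CPM in the bortezomib libraries, 49.1, 48.2 and 51.6 CPM in the elesclomol libraries, 63.4, 44.6 and 55.2 CPM in the combination libraries and 53.4, 59.4 and 53.1 CPM in the delayed combination libraries, against 49.7, 51.8 and 49.2 CPM in the PBS libraries. SDHA overlapped with PBS in every treated group, its log2 change was between -0.14 and 0.01, and the counts of its pseudogenes came to 8.51% of its own. SDHB was higher than PBS without overlap in the delayed combination, by 0.14 ± 0.12 on the log2 scale (edgeR adjusted p = 0.608).

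SDHC and SDHD anchor complex II in the membrane and help form its ubiquinone site. SDHC had 12.9, 14.0 and 13.8 CPM in the bortezomib libraries, 10.5, 9.38 and 14.2 CPM in the elesclomol libraries, 13.8, 13.4 and 13.3 CPM in the combination libraries and 11.6, 15.5 and 12.7 CPM in the delayed combination libraries, against 10.2, 10.4 and 10.6 CPM in the PBS libraries. SDHD had 28.5, 26.2 and 28.9 CPM in the bortezomib libraries, 20.6, 27.4 and 25.7 CPM in the elesclomol libraries, 28.9, 25.0 and 25.5 CPM in the combination libraries and 28.7, 28.3 and 27.1 CPM in the delayed combination libraries, against 25.7, 22.7 and 24.1 CPM in the PBS libraries. SDHC lay above PBS in all bortezomib, combination and delayed combination libraries, and its 3 elesclomol libraries fell on both sides of PBS. The log2 change of SDHC was 0.38 ± 0.16 in bortezomib, 0.14 ± 0.16 in elesclomol, 0.38 ± 0.16 in the combination and 0.36 ± 0.16 in the delayed combination (edgeR adjusted p = 0.457, 0.885, 0.340 and 0.445). SDHD lay above PBS without overlap in bortezomib and in the delayed combination.

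**Figure D3:**
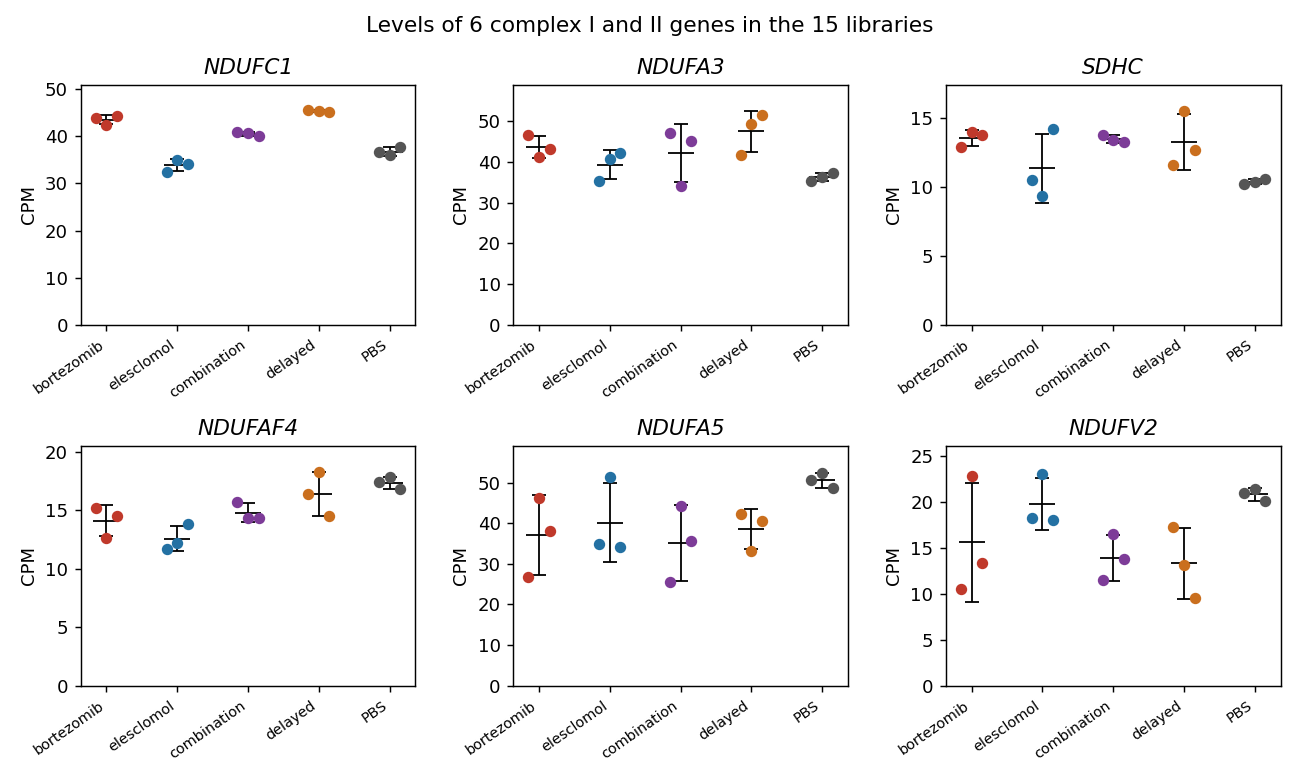
Levels in CPM (linear axis from 0) of 6 complex I and II genes in the 15 libraries, with 1 point per library and the mean ± SD of 3 libraries per group. NDUFC1 is at 40.1 to 45.6 CPM in the 9 libraries given bortezomib and at 32.5 to 37.7 CPM in the elesclomol and PBS libraries, while NDUFA5 and NDUFV2 are scattered in the treated groups and tight in PBS.

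NDUFC1, a small accessory subunit of the membrane arm, had the smallest joint p of the members (edgeR adjusted p = 0.142). It had 43.8, 42.4 and 44.2 CPM in the bortezomib libraries, 32.5, 34.9 and 34.2 CPM in the elesclomol libraries, 40.9, 40.7 and 40.1 CPM in the combination libraries and 45.6, 45.3 and 45.2 CPM in the delayed combination libraries, against 36.6, 36.0 and 37.7 CPM in the PBS libraries. All 9 libraries of the 3 groups given bortezomib lay above all 6 libraries without it, a pattern chosen after its values were seen. NDUFC1 was the only member with it, and 26 of the 13085 genes (0.199%) shared it. Its log2 change was 0.24 ± 0.08 in bortezomib, -0.12 ± 0.08 in elesclomol, 0.14 ± 0.08 in the combination and 0.30 ± 0.08 in the delayed combination (edgeR adjusted p = 0.419, 0.753, 0.424 and 0.262). With the combination set against elesclomol it was 0.26 ± 0.08 (edgeR adjusted p = 0.247). The gene overlaps MGARP on the same strand, so reads of the pair cannot be told apart where they overlap.

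The assembly factors of complex I include 8 NDUFAF genes. Their medians were 0.03 in bortezomib, -0.07 in elesclomol, -0.03 in the combination and 0.00 in the delayed combination, each below the median of all tested members. NDUFAF4, which helps build the ubiquinone-binding module, had 15.2, 12.6 and 14.5 CPM in the bortezomib libraries, 11.7, 12.2 and 13.8 CPM in the elesclomol libraries, 15.7, 14.3 and 14.3 CPM in the combination libraries and 16.4, 18.3 and 14.5 CPM in the delayed combination libraries, against 17.4, 17.8 and 16.8 CPM in the PBS libraries. Every bortezomib, elesclomol and combination library lay below PBS, and the delayed combination overlapped with PBS. The log2 change was -0.29 ± 0.13 in bortezomib, -0.46 ± 0.13 in elesclomol, -0.23 ± 0.13 in the combination and -0.08 ± 0.12 in the delayed combination (edgeR adjusted p = 0.458, 0.338, 0.416 and 0.774). Its joint test gave an edgeR adjusted p of 0.435, and its interaction was 0.52 ± 0.18 (edgeR adjusted p = 0.440), the highest interaction value of the members. Of 12 other assembly factors, such as ACAD9 and TMEM126B, 0 passed in edgeR, 2, 0, 1 and 2 had an unadjusted p under 0.05 (10.6%, 8.07%, 13.6% and 11.1% of all genes), and their medians were 0.15, 0.02, 0.06 and 0.14 in the same order of groups.

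Accessory subunits of the arm that binds NADH and ubiquinone numbered 9, with medians of 0.09 in bortezomib, -0.01 in elesclomol, 0.05 in the combination and 0.13 in the delayed combination. NDUFA5 had 26.8, 46.3 and 38.1 CPM in the bortezomib libraries, 34.9, 51.4 and 34.1 CPM in the elesclomol libraries, 25.5, 44.2 and 35.7 CPM in the combination libraries and 42.2, 33.1 and 40.5 CPM in the delayed combination libraries, against 50.6, 52.3 and 48.6 CPM in the PBS libraries. It was among the 3 lowest members in all 4 comparisons with PBS and lay below PBS without overlap in bortezomib, the combination and the delayed combination. Its log2 change was -0.45 ± 0.22, -0.53 ± 0.22 and -0.39 ± 0.22 in those groups and -0.33 ± 0.22 in elesclomol (edgeR adjusted p = 0.476, 0.340, 0.493 and 0.753). It was -0.26 without bortezomib 1, -0.34 without combination 1, and -0.24 and -0.23 without elesclomol 1 and elesclomol 3. Leaving out elesclomol 2 gave -0.55. NDUFA7 ranked highest in elesclomol and in the combination at 0.44 ± 0.41 and 0.43 ± 0.41 (edgeR adjusted p = 0.839 and 0.625), from only 6 to 27 counts per library, and it shares exons with the locus AC010323.1. Its levels were 1.84, 1.52 and 1.70 CPM in the bortezomib libraries, 2.59, 1.68 and 1.58 CPM in the elesclomol libraries, 2.98, 1.20 and 1.41 CPM in the combination libraries and 1.26, 1.82 and 2.11 CPM in the delayed combination libraries, against 1.35, 1.83 and 1.04 CPM in the PBS libraries.

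Accessory subunits of the proximal membrane arm numbered 9, with medians of 0.15 in bortezomib, 0.10 in elesclomol, 0.14 in the combination and 0.19 in the delayed combination. NDUFA3 had 46.5, 41.1 and 43.2 CPM in the bortezomib libraries, 35.3, 40.7 and 42.1 CPM in the elesclomol libraries, 47.1, 34.0 and 45.2 CPM in the combination libraries and 41.8, 49.4 and 51.4 CPM in the delayed combination libraries, against 35.2, 36.3 and 37.4 CPM in the PBS libraries. It had the highest change in the delayed combination, 0.39 ± 0.13 (edgeR adjusted p = 0.373), and lay above PBS without overlap there and in bortezomib. NDUFA13, a subunit also studied for a role in cell death, had 22.8, 15.4 and 19.6 CPM in the bortezomib libraries, 18, 21.0 and 21.5 CPM in the elesclomol libraries, 24.9, 19.2 and 18.3 CPM in the combination libraries and 20.8, 22.6 and 20.5 CPM in the delayed combination libraries, against 17.8, 16.8 and 17.8 CPM in the PBS libraries. NDUFA13 was above PBS without overlap in elesclomol by 0.21 ± 0.15 (edgeR adjusted p = 0.786), in the combination and in the delayed combination. NDUFA10 had 29.3, 31.4 and 26.4 CPM in the bortezomib libraries, 31.2, 37.7 and 29.1 CPM in the elesclomol libraries, 28.3, 28.7 and 25.4 CPM in the combination libraries and 29.7, 28.3 and 27.7 CPM in the delayed combination libraries, against 32.1, 31.7 and 31.2 CPM in the PBS libraries, and it was lower than PBS without overlap in the combination and in the delayed combination, where its change was -0.15 ± 0.11 (edgeR adjusted p = 0.566).

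The distal membrane arm, where the last proton channels lie, had 12 accessory genes. All 12 were above 0 in the delayed combination with a median of 0.21 (51.3% of all genes were above 0), and 6 of them lay above PBS without overlap (12.8% of all genes). The medians were 0.17 in bortezomib, 0.02 in elesclomol and 0.14 in the combination. NDUFB9 had 81.7, 62.5 and 72.9 CPM in the bortezomib libraries, 60.6, 66.5 and 69.8 CPM in the elesclomol libraries, 78.6, 57.7 and 71.6 CPM in the combination libraries and 68.5, 77.7 and 75.1 CPM in the delayed combination libraries, against 56.7, 60.2 and 58.7 CPM in the PBS libraries. NDUFB8 had 17.3, 13.7 and 16.2 CPM in the bortezomib libraries, 13.3, 17.9 and 15.6 CPM in the elesclomol libraries, 16.4, 13.7 and 15.1 CPM in the combination libraries and 13.6, 16.5 and 16.6 CPM in the delayed combination libraries, against 14.4, 11.3 and 12.1 CPM in the PBS libraries. NDUFB9 was above PBS without overlap in bortezomib, elesclomol and the delayed combination, with log2 changes of 0.31 ± 0.12, 0.17 ± 0.12 and 0.33 ± 0.12 (edgeR adjusted p = 0.449, 0.790 and 0.401). NDUFB8 overlapped with PBS in all 4 groups through PBS 1, with changes of 0.33 ± 0.16 in bortezomib and 0.32 ± 0.16 in elesclomol (edgeR adjusted p = 0.471 and 0.648). NDUFAB1, the mitochondrial acyl carrier protein, belongs to this arm, and NDUFA4, now counted as a subunit of complex IV despite its name, had a log2 change of 0.20 ± 0.14 in the delayed combination without overlap (edgeR adjusted p = 0.546).

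The 4 assembly factors of complex II had medians of 0.08 in bortezomib, -0.10 in elesclomol, 0.15 in the combination and 0.15 in the delayed combination. SDHAF2, which attaches the flavin to SDHA, had 9.78, 7.31 and 7.18 CPM in the bortezomib libraries, 5.94, 7.70 and 6.45 CPM in the elesclomol libraries, 10.2, 9.02 and 8.61 CPM in the combination libraries and 9.04, 8.38 and 7.94 CPM in the delayed combination libraries, against 8.13, 5.94 and 7.96 CPM in the PBS libraries. SDHAF4, which also acts on SDHA, had 3.22, 3.20 and 4.15 CPM in the bortezomib libraries, 2.89, 2.94 and 2.43 CPM in the elesclomol libraries, 2.65, 3.61 and 1.98 CPM in the combination libraries and 3.77, 3.55 and 2.84 CPM in the delayed combination libraries, against 3.84, 3.05 and 3.46 CPM in the PBS libraries. SDHAF2 was above PBS without overlap in the combination, by 0.35 ± 0.18 (edgeR adjusted p = 0.403), and above elesclomol there by 0.47 ± 0.18 (edgeR adjusted p = 0.313). SDHAF4 was below PBS without overlap in elesclomol, with a log2 change of -0.32 ± 0.26 (edgeR adjusted p = 0.820), and overlapped with PBS in the combination at -0.32 ± 0.26 (edgeR adjusted p = 0.560), with 14 to 45 counts per library.

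Libraries differed in how counts followed the GC content of the genes. Library bortezomib 1 had a correlation across all genes between its deviation and GC content of 0.51. The value was 0.49 for combination 1, 0.32 for delayed combination 2, and between -0.35 and -0.29 in the PBS libraries. The members' median log2 deviation was 0.17, 0.15 and 0.14 in the first 3 libraries and -0.09 to -0.06 in PBS. Other libraries differed, with correlations of -0.02 in elesclomol 1 and -0.13 in delayed combination 1, beside member medians of -0.16 and 0.08. Whether the GC trend and the member level moved together was not tested. The tested members had a median GC content of 47.5% (35% to 65.0%), close to the 47.4% of all genes. Across the 54 members, GC content and log2 change had a correlation of 0.44 for bortezomib, 0.51 in elesclomol, 0.54 in the combination and 0.49 in the delayed combination, a description over genes that share the same libraries. The 27 GC-richest members had medians of 0.17, 0.10, 0.12 and 0.21 in that order of groups, and the 27 GC-poorest had 0.03, -0.05, -0.03 and 0.05.

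With GC content and length corrected for, the member medians were 0.08 in bortezomib, -0.01 in elesclomol, 0.05 in the combination and 0.12 in the delayed combination, beside 0.04, 0.00, 0.02 and 0.04 over all genes. In the delayed combination 47 members were then above 0, and the share of all genes above 0 was not computed for this setting. There 16 members lay above and 2 below PBS without overlap, against 13.6% and 9.32% of all genes. The corrected counts above and below were 7 and 0 in bortezomib (10.7% and 7.26%), 2 and 2 in elesclomol (8.18% and 8.88%) and 4 and 3 in the combination (9.99% and 8.92%). Without the 3 GC-rich libraries, 22 members lay above and 5 below PBS without overlap in the delayed combination (15.4% and 17.8% of all genes, with 2 libraries left), 10 and 4 in bortezomib (14.9% and 14.6%) and 6 and 8 in the combination (15.1% and 15.3%). The delayed combination's member median was then 0.14, and it was 0.02 in bortezomib and -0.03 in the combination. NDUFA5, the GC-poorest member at 35%, had corrected changes of 0.03 in bortezomib, -0.12 in elesclomol, -0.01 in the combination and 0.11 in the delayed combination. NDUFV2, at 41.3%, had corrected changes of -0.35, -0.00, -0.51 and -0.57 in the same order. The corrected change of NDUFC1 was 0.21 ± 0.08 in bortezomib and 0.24 ± 0.08 in the delayed combination, and that of NDUFAF4 was 0.00 ± 0.23 in bortezomib and -0.29 ± 0.23 in elesclomol.

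**Figure D4:**
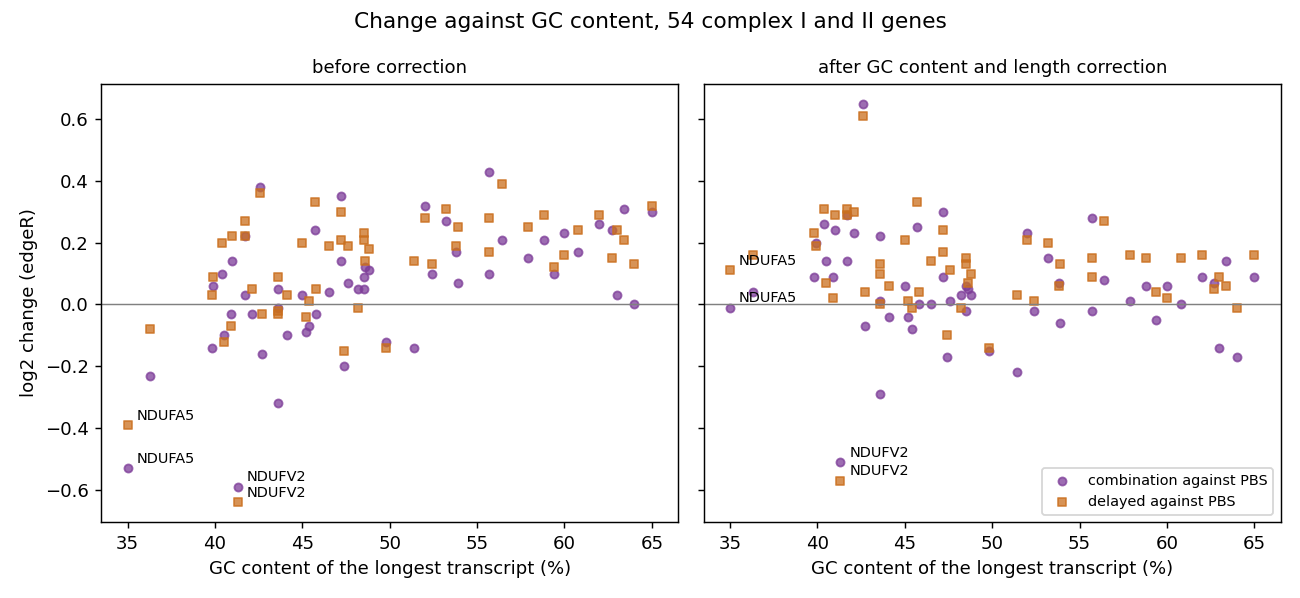
Log2 change (edgeR) against PBS of 54 complex I and II genes plotted against the GC content (%) of the longest transcript, for the combination (circles) and the delayed combination (squares), before (left) and after (right) correcting for GC content and length. NDUFA5 moves from -0.53 and -0.39 to -0.01 and 0.11, and NDUFV2 stays at -0.51 and -0.57.

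Marker genes described which cells the RNA came from. All 9 plasma cell markers were detected, with a summed level of 13465.0 to 16718.4 CPM over the libraries. Granulocyte markers (all 11 detected) summed to 12.9 to 132.5 CPM in the elesclomol libraries, against 14.4 to 29 CPM in the PBS libraries. Erythroid markers (8 of 10 detected) summed to 148.3 to 469.5 CPM in elesclomol, against 177.7 to 183.1 CPM in PBS. In PBS most of this sum was TFRC, at 146.1, 156.2 and 150.2 CPM, and TFRC had 127.8, 150.3 and 118.4 CPM in elesclomol. HBB had 286.1, 31.8 and 27.1 CPM in elesclomol, against 29.8, 19.2 and 31.3 CPM in PBS. The highest granulocyte sum and the highest erythroid sum belonged to elesclomol 1. The members in elesclomol 1 also had the lowest median deviation of the 15 libraries, -0.16 on the log2 scale. Without elesclomol 1 the member median was 0.04 in elesclomol, and 12 members lay above and 4 below PBS without overlap (14.8% and 14.0% of all genes, with 2 libraries left), in place of 2 and 3. In the delayed combination libraries, granulocyte markers summed to 8.12 to 11.4 CPM, all below the PBS libraries. In that group, 4 of the 5 tested granulocyte genes were below PBS without overlap (14.7% of all genes). Endothelial markers (5 detected) summed to 2.51 to 5.67 CPM in the delayed combination, all above the 0.692 to 2.26 CPM in PBS. Stromal and bone markers (all 13 detected) summed to 134.0 to 242.3 CPM there, against 104.9 to 136.2 CPM in PBS. The sums were 124.5 to 157.3 CPM in bortezomib, 130.1 to 204.5 CPM in elesclomol and 112.4 to 157.8 CPM in the combination. Genes of this list differed in direction. Mean COL1A1 was 30.9 CPM in the delayed combination, 22.2, 18.5 and 18.8 CPM in those 3 groups and 3.32 CPM in PBS. Mean RUNX2 was 29.2 CPM in the delayed combination and 44.3 CPM in PBS. Macrophage markers (9 detected) summed to 14.1 to 72.5 CPM in the delayed combination and 15.4 to 32.5 CPM in PBS. Erythroid markers summed to 166.7 to 181.0 CPM in the delayed combination and overlapped with PBS. Of this sum, TFRC had 149.9, 169.7 and 148.0 CPM. HBB had 15.9, 10.7 and 24.1 CPM there and also overlapped with PBS. The summed granulocyte level was 7.13 to 29.8 CPM in bortezomib and 7.18 to 32.6 CPM in the combination, and both overlapped with PBS. A host marker level was taken as the mean log2 CPM of the erythroid, granulocyte, macrophage, endothelial and stromal and bone markers, TFRC and RUNX2 included. It was 2.08 in elesclomol 1 and 0.35 to 0.90 in the other libraries, and whether it followed the amount of host RNA was not tested. With this level as a covariate in the model, the member median was 0.19 in the delayed combination (0.01 over all genes). In elesclomol 36 members were then above 0 with a median of 0.05 (-0.00 over all genes). The share of all genes above 0 was not computed for this setting. In bulk marrow, fewer cells of a type and less RNA per cell cannot be told apart.

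Complex I subunits encoded by mitochondrial DNA were set beside the nuclear ones. Of these 7 genes, 6 were below 0 in the combination (median -0.62, with 4 below PBS without overlap, as were 10.9% of all genes) and 6 in the delayed combination (median -0.49, with 4 below without overlap, as were 14.7%). All genes of mitochondrial DNA together held 36.8% to 39.5% of the counts in the combination and 36.1% to 40.3% in the delayed combination. Their share was 35.5% to 38.7% in PBS, so the groups overlapped. The medians of the 7 complex I genes were -0.18 in bortezomib and -0.06 in elesclomol. None of the 7 passed in edgeR, and 3 had an unadjusted p under 0.05 in the combination (13.6% of all genes) and 1 in the delayed combination (11.1%). Under limma voom 3 passed in the combination (10.7% of all genes). Without a filter, 1 passed in the combination (211 of 35074 genes) and 1 in the delayed combination (193 of 35074 genes). MT-ND4, which forms a proton channel, had 957.9, 1335.1 and 923.8 CPM in the combination and 1260.7, 1399.4 and 1205.2 CPM in the delayed combination, against 1907.5, 1670.4 and 1948.1 CPM in PBS. Its log2 change was -0.78 ± 0.26 in the combination and -0.52 ± 0.26 in the delayed combination (edgeR adjusted p = 0.295 and 0.466). MT-ND3 was the exception, with changes of 0.17 ± 0.17 and 0.40 ± 0.17 (edgeR adjusted p = 0.624 and 0.432). The corrected medians were -0.53 and -0.47. In bortezomib the median was 0.07 without the GC-rich library bortezomib 1 and -0.42 without bortezomib 2, and in elesclomol it was 0.16 without elesclomol 3 and -0.26 without elesclomol 2.

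Nuclear subunits of complexes III, IV and V, the rest of the respiratory chain and ATP synthase, also lay mostly above 0. Of 34 genes, 34 were above 0 in the delayed combination with a median of 0.20 (51.3% of all genes were above 0) and 22 lay above PBS without overlap (12.8% of all genes). In bortezomib 33 were above 0 (median 0.18, beside 52.6% of all genes), in elesclomol 23 (median 0.04, beside 50.7%) and in the combination 31 (median 0.15, beside 51.7%). None of that list passed in edgeR, and an unadjusted p under 0.05 was reached by 2 in bortezomib (10.6% of all genes), 0 in elesclomol (8.07%), 2 in the combination (13.6%) and 8 in the delayed combination (11.1%). Whether complexes I and II differed from them was not tested.

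Levels were compared between genes only per kilobase of merged exon. In PBS the highest members were NDUFS5 at 103.5 ± 9.68 CPM per kilobase, NDUFA1 at 74.3 ± 4.57, NDUFB7 at 64.7 ± 6.05, NDUFB10 at 49.6 ± 3.51 and NDUFB11 at 43.7 ± 3.00 (SD, n = 3 libraries) and all 5 are accessory subunits of the membrane arm. The lowest values were 0 for NDUFC2-KCTD14, 0.224 for NDUFA4L2 and 0.732 CPM per kilobase for SDHC. NDUFC2-KCTD14 overlaps NDUFC2 and KCTD14 on the same strand, so its 0 may reflect how shared reads were counted. Of the 10 highest members, 8 were the same in all 5 groups. Of 55 pairs of neighbours in the PBS order, 38 overlapped between their libraries and 17 did not. The exon length came from an annotation other than the one counted, so a level per kilobase of a gene with long or retained exons is uncertain.

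Replicates of the members varied least in PBS, where the median coefficient of variation was 6.20%, and in the delayed combination, where it was 6.44%. It was 12% in bortezomib, 10.3% in elesclomol and 13.2% in the combination. All 54 tested members had log2 changes within 0.5 of 0 in bortezomib and in elesclomol. In the combination NDUFA5 and NDUFV2 exceeded it, and in the delayed combination NDUFV2 did.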

How the data were processed

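Total RNA was measured in 15 libraries, 3 for each of 5 groups, grouped by their titles. Frozen marrow pellets were extracted with Trizol, and stranded libraries were made after depletion of ribosomal RNA, per the labels' protocols. Per the submitters' processing notes, STAR 2.5.4b, featureCounts 1.6.1 and GRCh37 were used. The deposited values are raw read counts per Ensembl gene. How strand was set, which annotation was counted and what was done with mouse reads were not given in the sources used here, and mouse reads from conserved transcripts may be among the counts. Nothing in the labels says whether libraries of a group share a culture or mouse, so p-values measure only the spread between these libraries. Libraries of a group all differed by more than sampling noise. The chi-square per degree of freedom was 2.17 to 3.04 between PBS libraries and 5.38 to 26.0 between libraries of a treated group. The PBS libraries were thus the most alike over all tested genes, and the part of this in the counts without overlap was not tested.

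Symbols, exon lengths and chromosomes came from GENCODE 29, which named 52338 of 57773 identifiers. Counts were tested with edgeR 4.0.16 in R 4.3.3 (quasi-likelihood, robust, TMM factors, filterByExpr with a minimum count of 10, all 15 libraries in 1 model, common biological coefficient of variation 0.171), and genes passed at a Benjamini-Hochberg adjusted p below 0.05. CPM used TMM-scaled library sizes. Library totals were 4500326 to 13161087 counts, of which the complex I and II genes held 0.206% to 0.259%, with 6 to 2051 counts per tested gene and library. Intervals and errors do not cover PCR duplicates. Alternatives were DESeq2 1.42.0, limma 3.58.1 voom with quality weights, no filter on low counts, a floor of 3 on the mean log2 CPM, a fit of just the compared groups, a block for the replicate number, library sizes without mitochondrial DNA genes, MALAT1 and 7S RNAs, the host marker level as a covariate, a loess correction for GC content and length (span 0.3, values for 97.8% of genes), leaving out the 3 GC-rich libraries or each library in turn, and a change of at least 1.5-fold. The counts without overlap under 3 of these were chosen after seeing the data. The NRF1 and YY1 motifs searched are given by name. The code was tested on simulated data.

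Same-numbered bortezomib and combination libraries deviated together from their group means (correlations 0.66, 0.52 and 0.12), a pairing taken from the data, since the labels give no source for it. Libraries of these groups with unlike numbers reached at most 0.22, so the third pair did not stand apart. In no other pair of groups did every same-numbered pair exceed 0.1. The members and the gene lists were chosen with earlier results of these data known. Named genes were the 7 core subunits of complex I, the 4 subunits of complex II, the 3 members with the highest and the 3 with the lowest change in each treatment against PBS, any member passing, and the 3 with the smallest joint p. Values of 1 member and 1 marker are not reported here, though counts and medians include them.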

Additional observations from a re-analysis of the deposited data

How the results depend on the processing

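No complex I or II gene passed in edgeR in the 9 comparisons and the joint test with the correction for GC content and length, the host covariate, other library sizes, the floor of 3 on the mean log2 CPM or without the 3 GC-rich libraries. None passed in the 9 comparisons, the joint test not being run, with the fit of just the compared groups or the 1.5-fold limit. Leaving out 1 library at a time, none passed in the joint test or in the comparisons that use the group left short (lowest 0, highest 0). With the replicate number as a block, 0 members passed in every comparison. This includes the combination against bortezomib, where a pairing by number comes from the data alone and not from the labels. DESeq2 gave 1 member in the joint test (NDUFC1). Limma voom gave 3 in the joint test (NDUFC1 and NDUFV2 among them), 1 in bortezomib (NDUFC1), 3 in the combination (NDUFA5 and NDUFV2 among them) and 2 in the delayed combination (NDUFC1 and NDUFV2), with 1086, 741, 1394 and 168 of all genes passing. Without a filter, NDUFV2 alone passed, 1 member in the joint test and 1 in the delayed combination. The cause was not tested.

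Changes turned direction for NDUFA5 after the GC and length correction (0.03 in bortezomib and 0.11 in the delayed combination), for NDUFAF4 after it (0.00 in bortezomib), and for NDUFA7 in the combination without the 3 GC-rich libraries (-0.11) or without combination 1 (-0.12, with 0.67 without PBS 2 as the highest such value). Leaving out 1 library at a time, the member median ranged from 0.02 (without bortezomib 1) to 0.20 in bortezomib, -0.01 to 0.04 in elesclomol, -0.03 (without combination 1) to 0.14 in the combination and 0.13 to 0.19 in the delayed combination. Depth limits NDUFA7, SDHAF4 and NDUFA4L2, with at most 27, 45 and 15 counts in a library.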

Other observations

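Other genes around the ubiquinone pool were described by 3 lists. Of 8 tested genes in a list of other entries into ubiquinone, such as DHODH of pyrimidine synthesis and ETFDH of fatty acid oxidation, 6 were above 0 in bortezomib, 4 in elesclomol, 3 in the combination and 7 in the delayed combination, with median log2 changes against PBS of 0.07, -0.03, -0.01 and 0.07. Of 11 genes of ubiquinone synthesis, 6, 6, 8 and 5 were above 0 in that order of groups, with medians of 0.05, 0.02, 0.05 and -0.01. Of 11 regulators of respiratory genes, such as NRF1, GABPA and TFAM, 6, 8, 5 and 6 were above 0, with medians of 0.04, 0.03, -0.01 and 0.01. None of these genes passed in edgeR, and an unadjusted p under 0.05 was reached in bortezomib by 0 of them, in elesclomol by 1 regulator and 1 gene of the other entries into ubiquinone, in the combination by 3 regulators and 1 gene of ubiquinone synthesis, and in the delayed combination by 1 regulator. Over all genes, 52.6%, 50.7%, 51.7% and 51.3% were above 0 and 10.6%, 8.07%, 13.6% and 11.1% had an unadjusted p under 0.05 in that order of groups.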
